A study of Homo sapiens with 6 samples.

Results

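Staufen1 (Stau1) is a protein that binds double-stranded stretches of RNA, and the 4 transcripts described here, ARF1, ANKRD57, CDCP1 and MTAP, are mRNAs that earlier literature named as targets of Staufen-mediated decay. They were taken by their gene symbol from a table of 37879 rows, 1 row per gene or transcript cluster, and all 4 had a row. None of them was chosen for its values in these arrays, although earlier results of these data were known when they were chosen. Of the 4, 3 were detected on every array and 1, CDCP1, on none.

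In Staufen-mediated decay, Stau1 binds an RNA stem in the 3′ untranslated region of an mRNA, downstream of the stop codon, and recruits the helicase UPF1, which sets off degradation of a translated mRNA. The stem can form within the mRNA itself, as described for ARF1. It can also form by pairing of an Alu element in the mRNA with an Alu element in a long noncoding RNA, as described for ANKRD57, CDCP1 and MTAP. UPF1 and its partners UPF2 and the SMG proteins also serve nonsense-mediated decay, so the pathways draw on shared factors.

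The data came from 6 Illumina HumanWG-6 v3 arrays of total RNA from HEK293T cells, a human embryonic kidney line that carries the SV40 large T antigen. The 3 control samples were transfected with an empty vector, and the 3 Stau1 samples with plasmids coding for Stau155-FLAG, the shorter Stau1 isoform with a FLAG tag. The study's methods describe a Stau155-FLAG plasmid with an RSV promoter and a retroviral one with a Murine Stem Cell Virus promoter, and the labels do not say which was used here. Both groups were held in prometaphase with Nocodazole (50 ng/ml for 15 h), so that no sample here was an untreated or interphase culture. The transfection was transient, so a sample may mix cells with and without plasmid, and nothing in the labels says that the numbered replicates were separate cultures; p-values measure the spread between these samples, which may be technical.

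Across the arrays the median deposited intensity was 83.0 to 102.2 in arbitrary units, the inferred background mean was 74.6 to 92.7, and 12730 to 13469 rows were detected. A row was kept for testing when its detection p, which sets its signal against that array's negative control beads, was under 0.05 on at least 3 of the 6 arrays, as held for 13285 rows. The cell type and stage markers fixed for the line were all kept, and none of them passed the threshold used below. These were NEFL, NEFM and INA, neurofilament-type genes typical of HEK293 cells, and CCNB1, PLK1, AURKA and CDC20, genes of mitosis. With no untreated or interphase sample to compare, detection of the mitosis genes does not check the arrest. Of 4 markers of other cell types, the leukocyte gene PTPRC, the liver gene ALB and the erythroid gene HBB were detected on 0 arrays, and the collagen gene COL1A1 was detected on all 6 with overlapping groups.

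STAU1, the gene that the plasmid carries, had normalised log2 intensities of 11.21, 11.39 and 11.37 in control replicates 1 to 3 and 11.41, 11.53 and 11.48 in Stau1 replicates 1 to 3. All Stau1 samples lay above all control samples, by a narrow margin between the highest control and the lowest Stau1 sample. The difference, Stau1 minus control throughout, was 0.15 on the log2 scale (SE 0.09, 95% interval -0.05 to 0.35, adjusted p = 0.999 by limma, exact permutation p = 0.1, two-sided). With 3 arrays against 3, 0.1 is the smallest p that this permutation test can give. Where the STAU1 probes lie relative to the plasmid's insert was not analysed here, so the row does not check the labels fully. At the protein level, the study reports less FLAG-tagged than endogenous Stau1 in cells transfected and held in prometaphase this way.

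Against that background, no difference beyond the spread between arrays was found for ARF1, ANKRD57 or MTAP, and CDCP1 gave no measurable signal. Of the 3 kept transcripts, 0 passed an adjusted p of 0.05 in limma, and this share was 0% over all 13285 kept rows. At an unadjusted p under 0.05, 0 of the 3 were called, beside 495 rows or 3.73% over all. That background count depends on the processing: it was 229 with median scaling, 1290 with array weights, 239 without Stau1 replicate 3, 309 without control replicate 2 and 1698 without control replicate 3. In 0 of the 3 did the groups fail to overlap, beside 1051 rows or 7.91% over all. ANKRD57 and MTAP had higher means in the Stau1 samples and ARF1 a lower one, with a median difference of 0.07 over the 3 and of -0.002 over all kept rows. In a bulk sample, a lower level per cell and fewer cells that carry the transcript cannot be told apart.

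**Figure D1:**
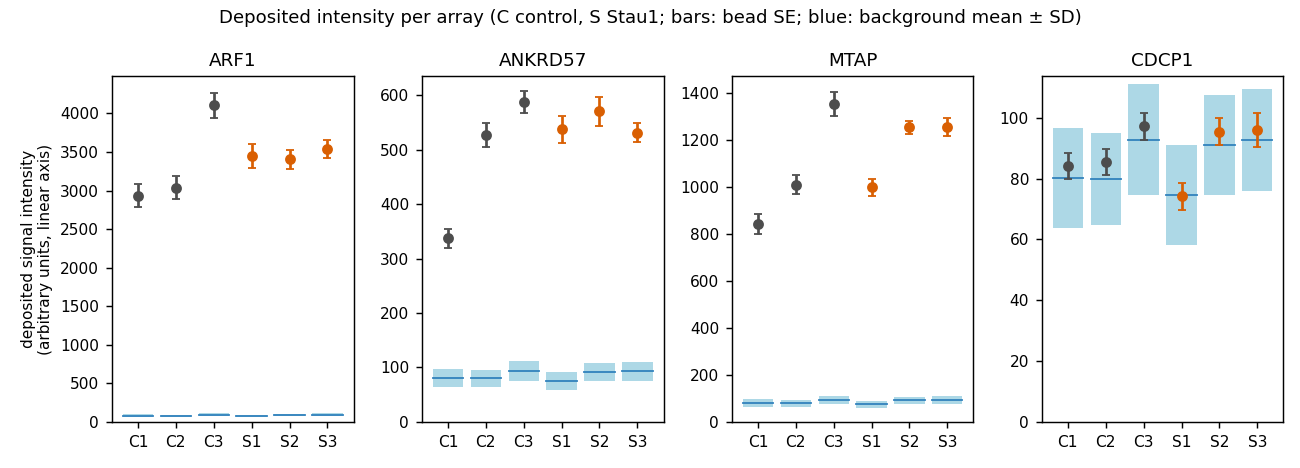
Deposited intensity (arbitrary units, linear axes from 0) of the 4 transcripts on control (C, grey) and Stau1 (S, orange) arrays 1 to 3, with the standard error over beads as bars and the background mean ± SD of each array in blue. ARF1, ANKRD57 and MTAP lie far above the background on every array, and every CDCP1 value lies within 1 SD of it.

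ARF1 is a small GTPase that recruits the COPI coat to Golgi membranes. Its row, which the table places on the plus strand of chromosome 1, averaged 3 probes. Its deposited intensities were 2935, 3040 and 4106 in control replicates 1 to 3 and 3452, 3406 and 3542 in Stau1 replicates 1 to 3. On this unnormalised scale the lowest and the highest sample were both controls, and the Stau1 samples lay between them. The group means were 3360 ± 648 and 3467 ± 68.9 (SD, n = 3 each). The control spread was therefore much the wider on this scale.

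After background correction and quantile normalisation, the ARF1 log2 intensities were 11.90, 11.65 and 11.67 in the controls and 11.83, 11.60 and 11.67 in the Stau1 samples. Replicate 1 of each group was the highest of its group, and the groups overlapped almost fully. The means were 11.74 ± 0.14 and 11.70 ± 0.12 (SD, n = 3 each), a difference of -0.04 (SE 0.10, 95% interval -0.26 to 0.18, limma adjusted p = 0.999, exact permutation p = 0.6). As a ratio the interval ran from 0.838 to 1.13. A difference at least as large in either direction was seen in 76.0% of kept rows. The sign of the ARF1 difference was not stable: with median scaling it was 0.06, without control replicate 1 it was 0.04, and without Stau1 replicate 2 it was 0.01. Median scaling also moved the median of all kept rows, from -0.002 to 0.07, and ARF1 lay below that median both before and after.

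ANKRD57, now named SOWAHC, encodes an ankyrin repeat protein of the SOWAH family. Its row held a single probe, on the plus strand of chromosome 2. The deposited intensities were 337, 526 and 588 in control replicates 1 to 3 and 537, 571 and 531 in Stau1 replicates 1 to 3. Control replicate 1 stood apart below the other 5 arrays. The standard errors over beads over the 6 arrays were 3.32% to 5.34% of the intensity.

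On the normalised log2 scale, ANKRD57 had values of 8.43, 8.99 and 8.68 in the controls and 9.00, 8.84 and 8.75 in the Stau1 samples. The highest control sample nearly equalled the highest Stau1 sample, and the control range of intensities covered almost all of the Stau1 range. The means were 8.70 ± 0.28 and 8.86 ± 0.13 (SD, n = 3 each), and the difference of 0.16 was the largest of the kept targets (SE 0.15, 95% interval -0.17 to 0.49, limma adjusted p = 0.999, exact permutation p = 0.4). As a ratio the interval ran from 0.890 to 1.41, the widest of the 3. A difference at least this large was seen in 26.7% of kept rows. Without control replicate 1 the difference was 0.03, without control replicate 2 it was 0.31, with weights for array quality it was 0.004, and with the background taken from all rows it was 0.07.

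MTAP encodes methylthioadenosine phosphorylase, which starts the return of the methylthioadenosine left over from polyamine synthesis to methionine. Its row held a single probe, on the plus strand of chromosome 9. The deposited intensities were 843, 1010 and 1352 in control replicates 1 to 3 and 998, 1254 and 1254 in Stau1 replicates 1 to 3. Here too the lowest and the highest sample were controls. Control replicate 3 was the highest array for ARF1, ANKRD57 and MTAP alike on the deposited scale. Its median intensity over all rows, 102.2, was nearly that of Stau1 replicate 3, 102.1.

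The normalised log2 intensities of MTAP were 9.98, 10.01 and 9.98 in the controls and 9.99, 10.09 and 10.11 in the Stau1 samples. Stau1 replicates 2 and 3 lay above all controls, and Stau1 replicate 1 lay within the control range. The means were 9.99 ± 0.02 and 10.06 ± 0.06 (SD, n = 3 each), a difference of 0.07 (SE 0.10, 95% interval -0.15 to 0.29, limma adjusted p = 0.999, exact permutation p = 0.2). As a ratio the interval ran from 0.903 to 1.22. MTAP was among the tightest rows in the controls, since 99.3% of kept rows had a control SD at least as large, and limma's moderated error was accordingly wider than the spread of its own values. With median scaling, which leaves more of the brightness differences between arrays in place, the difference was 0.15 with an SE of 0.22.

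CDCP1 encodes a transmembrane glycoprotein that SRC-family kinases phosphorylate. Its row, on the minus strand of chromosome 3, averaged 4 probes. The deposited intensities were 84.1, 85.5 and 97.2 in control replicates 1 to 3 and 74.2, 95.4 and 96.0 in Stau1 replicates 1 to 3. These were 0.995 to 1.07 times the background mean of the same array, with detection p from 0.0743 to 0.324, so CDCP1 was detected on 0 of 6 arrays. Stau1 replicate 1 was lowest both in CDCP1 intensity and in background mean, and the groups overlapped.

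Because CDCP1 failed the detection filter, its only fitted value comes from the fit with all 37879 rows. There its log2 intensities were 4.93, 4.96 and 4.94 in the controls and 4.85, 4.93 and 4.92 in the Stau1 samples, with overlapping groups and a difference of -0.05 (SE 0.08, 95% interval -0.21 to 0.12, limma adjusted p = 0.999, exact permutation p = 0.2). The narrow interval is that of values at the floor of the scale and sets no limit on a change in the transcript. A difference in CDCP1 was not detectable at this signal.

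**Figure D2:**
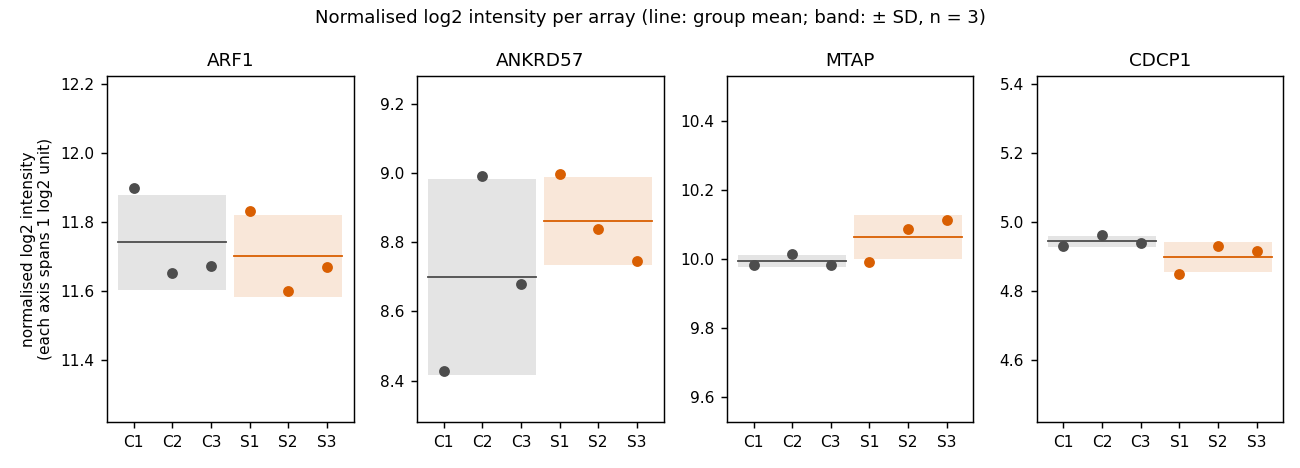
Normalised log2 intensity of the 4 transcripts on control (C, grey) and Stau1 (S, orange) arrays 1 to 3, with lines at the group means and bands of ± SD (n = 3), each axis spanning 1 log2 unit. The groups overlap in all 4 panels, ANKRD57 has the widest control spread, and MTAP and CDCP1 vary least.

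The 3 detected targets did not share a pattern over the arrays. ARF1 was highest in control replicate 1, where ANKRD57 was lowest, while MTAP was highest in Stau1 replicate 3. Likeness was measured as the root mean square difference of 2 rows' log2 values over the 6 arrays, after each row was centred on its own mean. It was 0.26 between ARF1 and ANKRD57, 0.20 between ANKRD57 and MTAP, and 0.14 between ARF1 and MTAP. The deviations of each row from its own mean were 0.11 for ARF1, 0.20 for ANKRD57 and 0.05 for MTAP by the same measure, so each pair differed by about as much as, or more than, either row varied.

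Among all kept rows, those nearest to ARF1 were NDUFA11, an accessory subunit of respiratory complex I, MGC71993 and BPTF, a chromatin remodelling factor, at 0.017, 0.020 and 0.021. Nearest to ANKRD57 were HS.486010, H2AFV, a histone variant gene, and LOC642183, at 0.027, 0.038 and 0.040. Nearest to MTAP were SOD2, the mitochondrial superoxide dismutase, RPL8, a ribosomal protein, and ERICH1, at 0.020, 0.020 and 0.025. With only 6 arrays and 13285 rows to search, these are descriptions of the nearest profiles. The nearest rows of 1 target were not those of another.

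**Figure D3:**
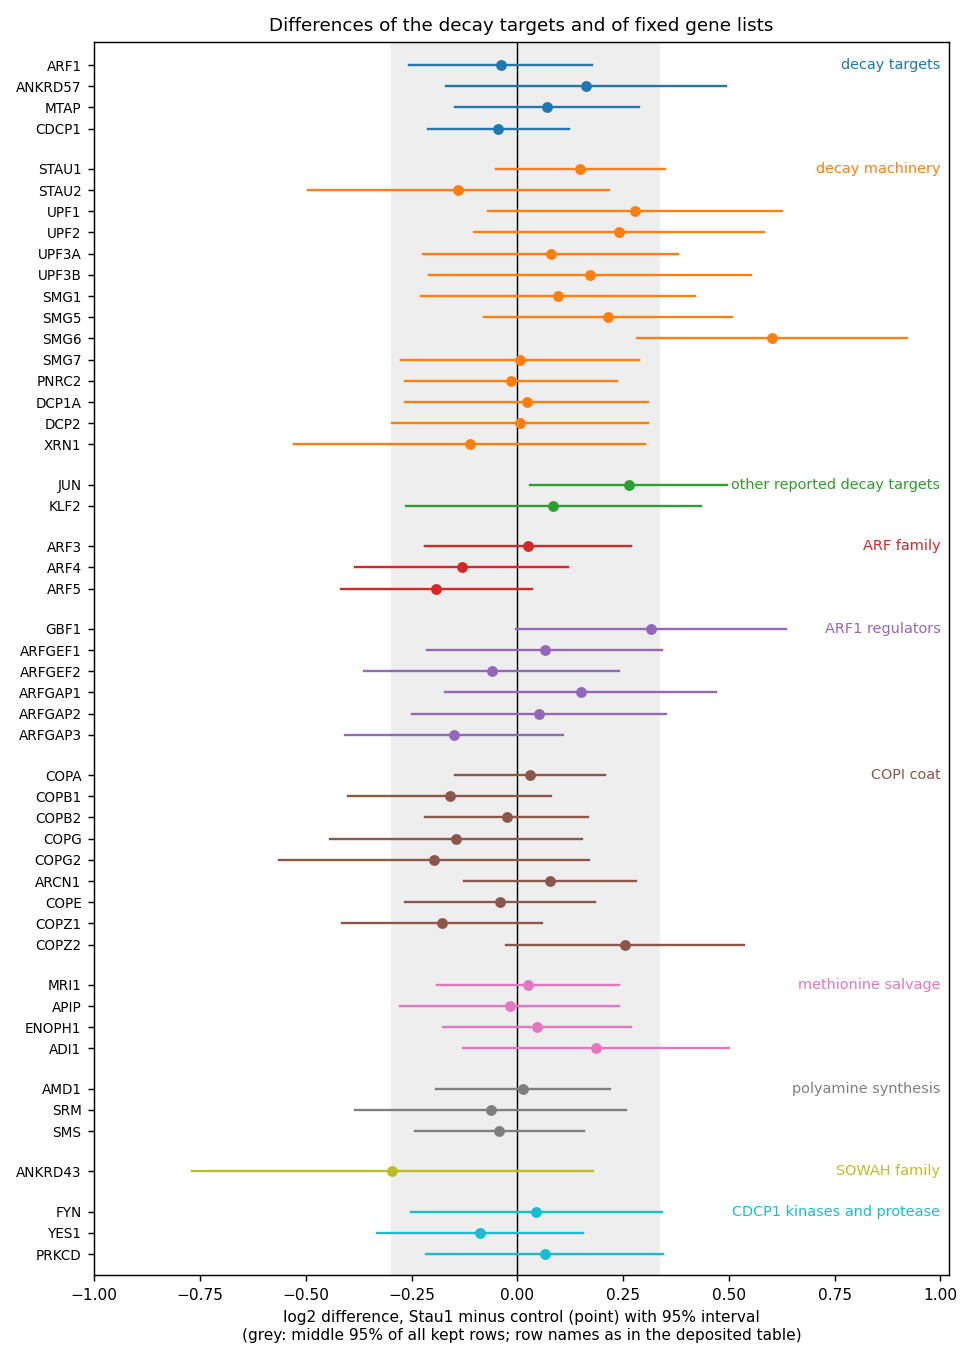
Log2 difference (Stau1 minus control, point) with its 95% interval for the 4 decay targets and for the kept genes of the fixed lists, over a grey band that holds the middle 95% of all kept rows. CDCP1 comes from the fit without the filter. SMG6, detected on 1 control array, and JUN have intervals that exclude 0 before adjustment, the control values of COPZ2 were not above background, and the 3 detected decay targets lie inside the grey band.

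The mRNAs of the proteins that carry out the decay were examined next. Of 14 genes of the decay machinery, all 14 were kept and 0 passed the adjusted threshold. In the Stau1 samples 11 were higher and 3 lower, with a median difference of 0.09. Over all kept rows 49.4% were higher, with a median of -0.002. The 11 include STAU1, which the plasmid carries, and SMG6, which passed the filter through the Stau1 samples. UPF1, the helicase that Stau1 recruits, ranged from 7.69 to 8.19 in log2 intensity in the controls and from 8.13 to 8.42 in the Stau1 samples, and UPF2 from 8.51 to 9.20 and from 9.03 to 9.14. Both overlapped between groups, with differences of 0.28 (95% interval -0.07 to 0.62) and 0.24 (95% interval -0.10 to 0.58).

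SMG6, the endonuclease of nonsense-mediated decay, had the largest difference of the list. It was detected on 1 control array and 3 Stau1 arrays, so it passed the filter through the Stau1 samples, and most of its control values were not above background. It ranged from 5.08 to 5.51 in the controls and from 5.84 to 5.97 in the Stau1 samples, without overlap. The difference was 0.60 (SE 0.15, 95% interval 0.28 to 0.92), with an unadjusted limma p of 0.00133 and an adjusted p of 0.999. Because of the filter, neither these values nor the lack of overlap can serve as support for a change in SMG6. STAU2, the Stau1 paralog, differed by -0.14 (95% interval -0.49 to 0.22) and overlapped between groups.

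Among other transcripts reported as decay targets, JUN and KLF2 were kept, whereas IL7R was detected on 0 arrays and PAX3 on 1. JUN, a subunit of the AP-1 transcription factor, ranged from 11.31 to 11.67 in the controls and from 11.63 to 11.76 in the Stau1 samples. These ranges overlapped, and the difference was 0.26 (SE 0.11, 95% interval 0.03 to 0.49). The unadjusted limma p was 0.0292, and the adjusted p was 0.999. KLF2, a zinc finger transcription factor, differed by 0.09 (95% interval -0.26 to 0.43).

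Of the genes that act around ARF1, all on the fixed lists but ARF6 were kept, and none passed the adjusted threshold. Its paralogs ARF3, ARF4 and ARF5 had differences of 0.03, -0.13 and -0.19, and ARF6 was detected on 0 arrays. ARF5 ranged from 11.42 to 11.76 in the controls and from 11.30 to 11.41 in the Stau1 samples, without overlap. Groups failed to overlap in 7.91% of all kept rows. Of 6 exchange factors and GTPase-activating proteins for ARF1, 4 were higher and 2 lower, with GBF1, the Golgi exchange factor, at 0.32 (95% interval -0.002 to 0.63) and without overlap. The 9 genes of the COPI coat, which ARF1 recruits, gave 3 higher and 6 lower. COPZ2, a coat subunit, was detected on 0 control arrays and 3 Stau1 arrays, so it passed the filter through the Stau1 samples alone and its control level is only a bound. COPA, the alpha subunit, ranged from 11.78 to 11.87 in the controls and from 11.84 to 11.88 in the Stau1 samples.

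The listed enzymes around MTAP were all kept. Of 4 that act after it in methionine salvage, MRI1, APIP, ENOPH1 and ADI1, 3 were higher and 1 lower, from -0.02 for APIP to 0.19 for ADI1. Of the 3 of polyamine synthesis, AMD1, SRM and SMS, 1 was higher and 2 lower, from -0.06 for SRM to 0.01 for AMD1. The groups overlapped for every one of these enzymes.

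Of the 3 paralogs of ANKRD57, only SOWAHA, listed as ANKRD43, was kept, with a difference of -0.30 (95% interval -0.77 to 0.18) against the 0.16 of ANKRD57, and both overlapped between groups. Of the kinases and the protease listed for CDCP1, FYN, YES1 and PRKCD were kept, with differences of 0.04, -0.09 and 0.06. SRC was detected on 2 arrays and the protease gene ST14 on 0. SRC had log2 values from 7.44 to 7.64 in the controls and from 7.47 to 7.66 in the Stau1 samples. ST14 lay from 4.72 to 4.91 and from 4.74 to 4.85, so the low count for SRC need not mean a low signal.

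Over all 53 genes of these lists, 45 were kept, with 27 higher, 18 lower and a median difference of 0.02. Of all kept rows, 49.4% were higher. At an unadjusted p under 0.05, 2 were called, beside the 3.73% over all rows. The groups did not overlap for 5 of the 45, or 11.1%, beside 7.91% over all kept rows. These were STAU1, the transfected gene, ARF5, GBF1, and also SMG6 and COPZ2, which passed the filter through the Stau1 samples. None of the 45 passed the adjusted threshold.

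**Figure D4:**
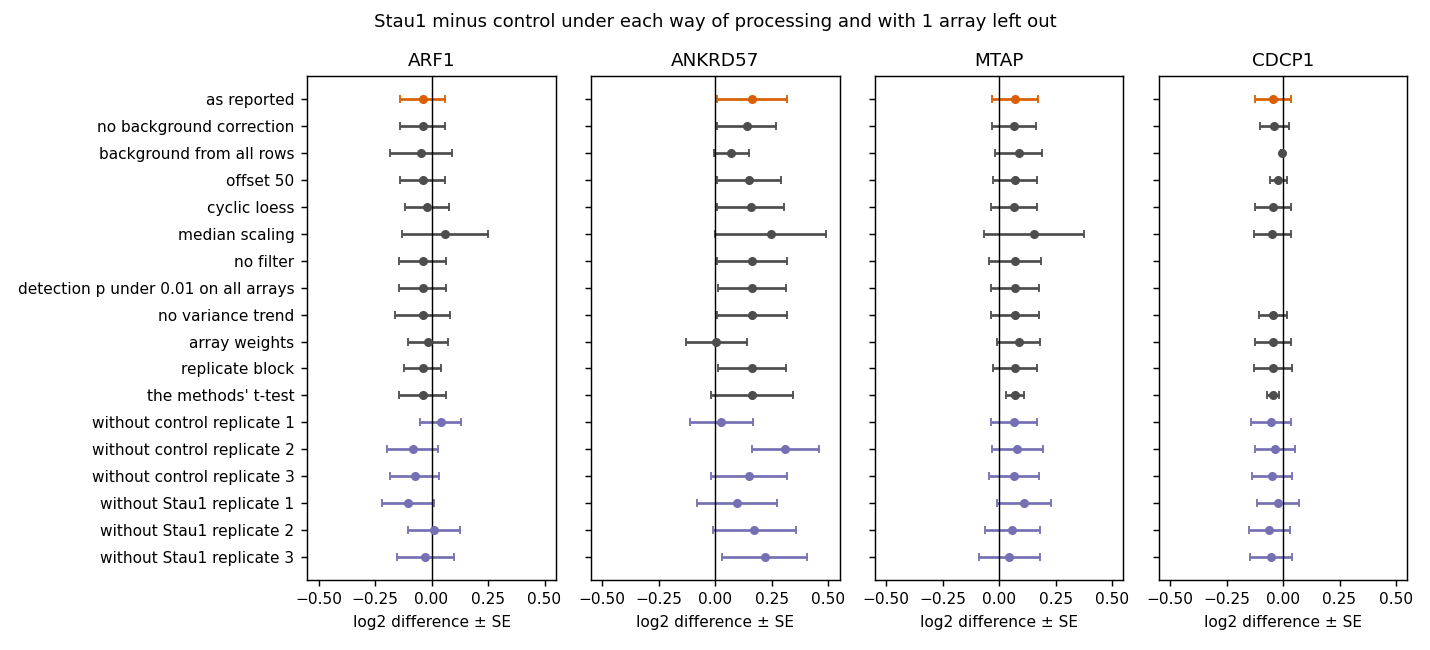
Log2 difference (Stau1 minus control) ± SE of the 4 decay targets as reported (orange), under each other way of processing (grey) and with 1 array left out (purple). ARF1 falls on both sides of 0, ANKRD57 ranges from 0.004 to 0.31, MTAP stays between 0.05 and 0.15, and CDCP1, which was not detected, stays near 0.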

How the data were processed

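Total RNA from 3 control and 3 Stau1 samples was measured on 6 arrays, grouped by the transfection in the labels. The labels' time in nocodazole is printed; the study's methods give another. Per the file headers, the deposited signal intensity had been neither background-corrected nor normalised by the authors, and each row averages the probes of a gene. Beside it the authors deposited a detection p-value, a bead standard error (intensity units) and another column, the mean number of beads. Genome build and probe positions are not given in the sources used here.

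Intensities were corrected with limma 3.58.1 (R 4.3.3) by normexp (offset 16). The background was inferred from detection p-values over the 30932 rows of 1 probe, known by a whole number of beads and by detection p-values that are multiples of 1 in 759 (tolerance 0.002 steps), since rows of several probes carry a combined p. Quantile normalisation and log2 followed. The 13285 rows (35.1%) whose detection p was below 0.05 on 3 or more arrays were fitted with lmFit and eBayes (variance trend), with Benjamini-Hochberg adjustment over those rows and a threshold of 0.05. Intervals are 95% and unadjusted. Single rows were also compared by a two-sided exact permutation test.

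The decay targets and gene lists were chosen with earlier results of these data known. The text names the 4 targets, STAU1, genes of the lists and, for each kept target, the 3 rows with the nearest profile. All 53 list genes had a row, 4 by an older symbol found through a RefSeq table (GRCh38.p14) used for names only. The values of 1 list gene are not reported here. The fit was tested on simulated data. Alternatives covered background, offset (50), normalisation, filter, variance trend, array weights, replicate block, the methods' t-test and each array left out. Figures were drawn with matplotlib 3.10.9. The number of arrays limits the precision.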

Additional observations from a re-analysis of the deposited data

How the results depend on the processing

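No decay target passed the adjusted threshold under any of the alternatives run, with adjusted p from 0.769 to 1.00. Changing the filter, the variance trend, the block or the test leaves the estimate of a difference as it is. In the other 12 alternatives ANKRD57, MTAP and CDCP1 kept their sign in 12 and ARF1 in 9: with median scaling it was 0.0581, and with 1 array left out it ranged from -0.104 to 0.0401, being above 0 without control replicate 1 (0.0401) and without Stau1 replicate 2 (0.0111). Median scaling moved the median of all kept rows to 0.0679. The cause of the changes of sign was not tested. The number of rows called by limma was 0 in every fit of all 6 arrays and 0 by the methods' t-test. With array weights the lowest limma adjusted p over all kept rows was 0.0564, close to the threshold, against 0.999 in the main fit. Those weights were highest for Stau1 replicate 3, at 3.33, and lowest for control replicate 1, at 0.40. With 1 array left out, from 0 to 39 rows were called. The 39 were called without control replicate 3, and none of them was a decay target. The replicate numbers were not read as pairs, since same-numbered samples deviated together with correlations of 0.02, 0.26 and -0.14. With the replicate block 0 rows were called, and ANKRD57 differed by 0.162, ARF1 by -0.0397, MTAP by 0.0707 and CDCP1 by -0.0453. With 3 arrays a group the 95% intervals, rather than the p-values, give the range of differences that these arrays allow. They are unadjusted, belong to the main processing and cover only the spread between these arrays. If the replicates were technical, they set no bound on differences between cultures. For CDCP1 the signal at background bounds nothing.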
